A study of Bos taurus with 6 samples.

Results

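Krüppel-like factors (KLFs) are zinc-finger transcription factors that bind GC-rich and CACCC-type elements in promoters, and 10 genes of the family with a known place in fat biology were examined in intramuscular fat (IMF) of steers and bulls. They were chosen by symbol, KLF2, KLF3, KLF4, KLF5, KLF6, KLF7, KLF9, KLF10, KLF13 and KLF15, and all 10 were found among the 25444 genes of the mRNA count table. The values come from 2 pooled mRNA libraries of Chinese Qinchuan cattle, 1 of steers, surgically castrated at 6 months, and 1 of intact bulls, all weaned at 3 months, fed alike and slaughtered at 24 months. The study's design gives 6 animals behind each pool, whereas the sample labels give 3. The fat was dissected from the sternomandibularis muscle, the animals descended from a single sire, and the RNA of a group was pooled before library construction, so the spread between animals was not measured.

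In cell models of fat formation, KLFs act as a relay around PPARG, the master regulator of adipocytes. KLF4 acts early and switches on CEBPB, KLF5 follows and activates PPARG, and KLF9 and KLF15 act late in differentiation. KLF6 and KLF13 also favour differentiation, whereas KLF2, KLF3 and KLF7 restrain it. KLF10 is induced by TGF-beta. Several members, KLF2, KLF4 and KLF6 among them, are also strongly expressed in endothelial and immune cells.

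The counts summed to 12677375 in the steer library and 9868415 in the bull library. Counts were divided by size factors of 1.04 and 0.959, and the quotients are called normalized counts. Each gene was compared with a two-sided exact binomial test on its pair of counts, adjusted by the Benjamini-Hochberg method over the 17752 genes that had any count. Differences are given as log2FC, the log2 of the ratio of normalized counts, steers over bulls. A gene was taken as called at an adjusted p under 0.05 together with an absolute log2FC over 1. With 1 library per group there is no replicate check, so the test compares these 2 libraries and not the conditions, and the 95% intervals cover counting error only. Markers of adipocytes were abundant in both libraries, and so were those of skeletal muscle, with 2870 CPM (counts scaled to the same total of gene counts in each library) over 12 genes in steers and 5364 in bulls.

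None of the 10 KLF genes was called in either direction, where 12.5% of all genes tested were called, 4.37% up and 8.13% down. Among the 8594 genes with a mean of at least 100 normalized counts, which is the range of the KLF genes, 8.27% were called. Without the fold threshold, 3 of them were higher in steers (KLF9, KLF10 and KLF15) and 3 were lower (KLF4, KLF6 and KLF7) at an adjusted p under 0.05, a share of 6 of 10. Over all genes tested 38.2% passed in this way, 19.9% higher and 18.3% lower in steers, and over the 8594 genes 56.4% passed. The other 4, KLF2, KLF3, KLF5 and KLF13, did not pass. The log2FC values ran from -0.77 for KLF6 to 0.52 for KLF15, and their median was 0.08 compared with 0.003 over all genes. Of the 10 genes 6 lay above 0, and of the 16171 genes tested that had a fold 8132 did. The median absolute log2FC was 0.26 for the KLF genes and 0.29 for all genes with a mean of at least 100 normalized counts. Scaling by total counts placed the median of all genes at -0.24 and left 2 KLF genes above 0 and 8 below, instead of 6 and 4, so that directions close to 0 depend on the scaling.

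**Figure D1:**
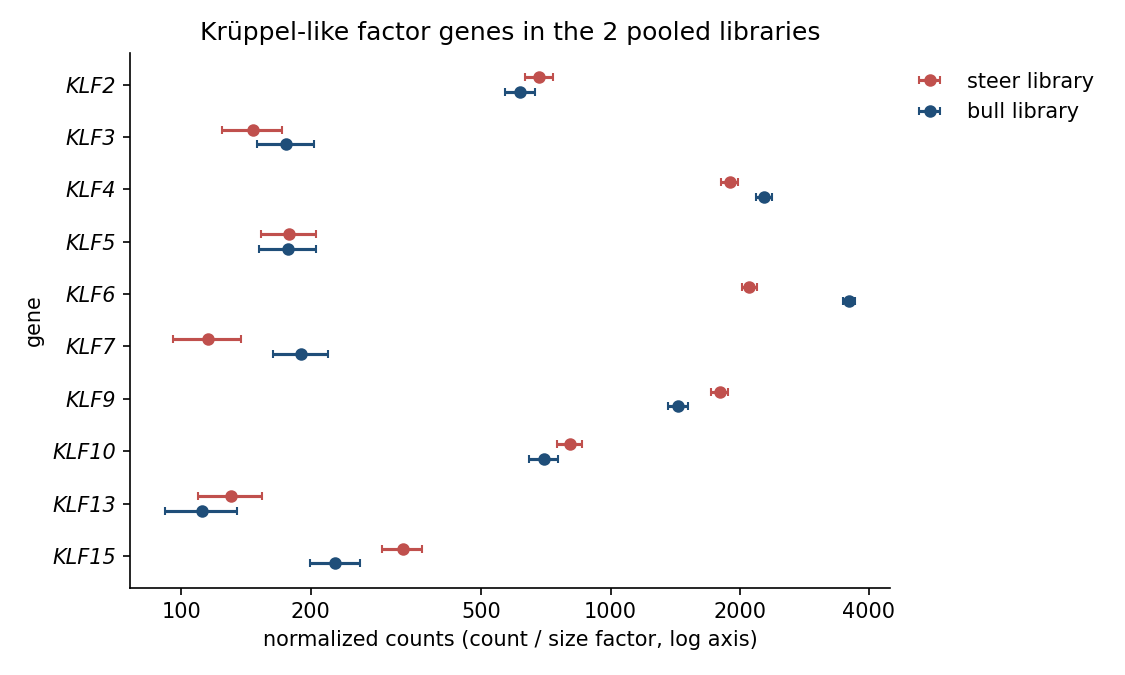
Normalized counts of the 10 KLF genes (log axis) in the steer library (red) and the bull library (blue), with 95% Poisson intervals of the counts as bars. The points of KLF6 lie farthest apart among the genes lower in steers (2107 and 3599), those of KLF15 among the genes higher in steers (328 and 228). Read numbers also depend on transcript length, so points are compared within a gene.

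Among the members that favour fat cell formation, KLF6, which is known to repress DLK1, had the lowest fold. It had 2198 counts in steers and 3450 in bulls, or 2107 and 3599 normalized counts. The log2FC was -0.77 (95% interval -0.85 to -0.69), a level 1.71-fold higher in the bull library. In the exact binomial test its adjusted p was 2.8e-86. With total counts its log2FC was -1.01, and it was then the only KLF gene called. Its target DLK1, a preadipocyte gene, had 0 counts in steers and 5 in bulls, too few for a comparison.

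KLF4 had 1978 and 2183 counts in steers and bulls, or 1896 and 2277 normalized counts. The steer library was lower by a log2FC of -0.26 (-0.35 to -0.18), with an adjusted p of 2.9e-08 in the exact binomial test, and was at -0.50 with total counts. KLF5, which links the early C/EBP factors to PPARG, had 186 and 170 counts and 178 and 177 normalized counts. Its log2FC was 0.01 (-0.30 to 0.32), and it took a value of -0.01 with TMM factors and -0.23 with total counts. At this depth a difference of KLF5 within that interval was not detectable.

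KLF9 and KLF15, the late-acting members, were both higher in the steer library. KLF9, which is also induced by glucocorticoids, had 1875 counts against 1376 in bulls, or 1797 and 1436 normalized counts. Its log2FC was 0.32 (0.22 to 0.43), with an adjusted p of 1.9e-09 in the exact binomial test. In RefSeq's assembly of the cattle genome it overlaps SMC5, which had 48 and 45 counts, and LOC100297814, for which no counts were analysed here. The use of strand in counting is not given in the sources used here, and the part of reads from either gene in the KLF9 value was not tested. KLF15, an activator of glucose uptake and amino acid breakdown genes, had 342 and 219 counts, or 328 and 228 normalized counts. It was higher by a log2FC of 0.52 (0.27 to 0.77), the highest of the 10 genes, with an adjusted p of 0.00014 in the exact binomial test. With total counts both stayed above 0, at 0.09 for KLF9 and 0.28 for KLF15, and neither passed the exact binomial test (adjusted p of 0.19 and 0.062).

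KLF13, a factor known for the late induction of the chemokine gene CCL5 in T lymphocytes, had 136 counts in steers and 107 in bulls, or 130 and 112 normalized counts. The log2FC of 0.22 had an interval that included 0 (-0.15 to 0.60).

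Of the members that restrain fat cell formation, KLF7 was lower in steers. It had 120 and 182 counts, or 115 and 190 normalized counts, and a log2FC of -0.72 (-1.07 to -0.38) with an adjusted p of 0.0001 in the exact binomial test. Its difference was close to that of KLF6, but it came from far fewer counts, and its interval reached past -1. KLF2, a factor of endothelial quiescence that blocks PPARG, had 711 and 590 counts, or 682 and 616 normalized counts. Its log2FC of 0.15 (-0.01 to 0.31) did not pass the exact binomial test (adjusted p = 0.15). KLF3, a repressor that recruits CtBP proteins, had 153 and 168 counts, or 147 and 175 normalized counts, and a log2FC of -0.26 (-0.58 to 0.07). It did not pass the exact binomial test either (adjusted p = 0.24), although it did with total counts, at -0.50 (adjusted p = 0.0078).

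KLF10, the TGF-beta-inducible member, had 837 counts in steers and 669 in bulls, or 802 and 698 normalized counts. It was higher in steers by a log2FC of 0.20 (0.05 to 0.35), with an adjusted p of 0.022 in the exact binomial test, and was at -0.04 with total counts. TGFB1 itself was called downregulated in steers, from 756 to 398 counts and with a log2FC of -1.05 (-1.23 to -0.87).

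**Figure D2:**
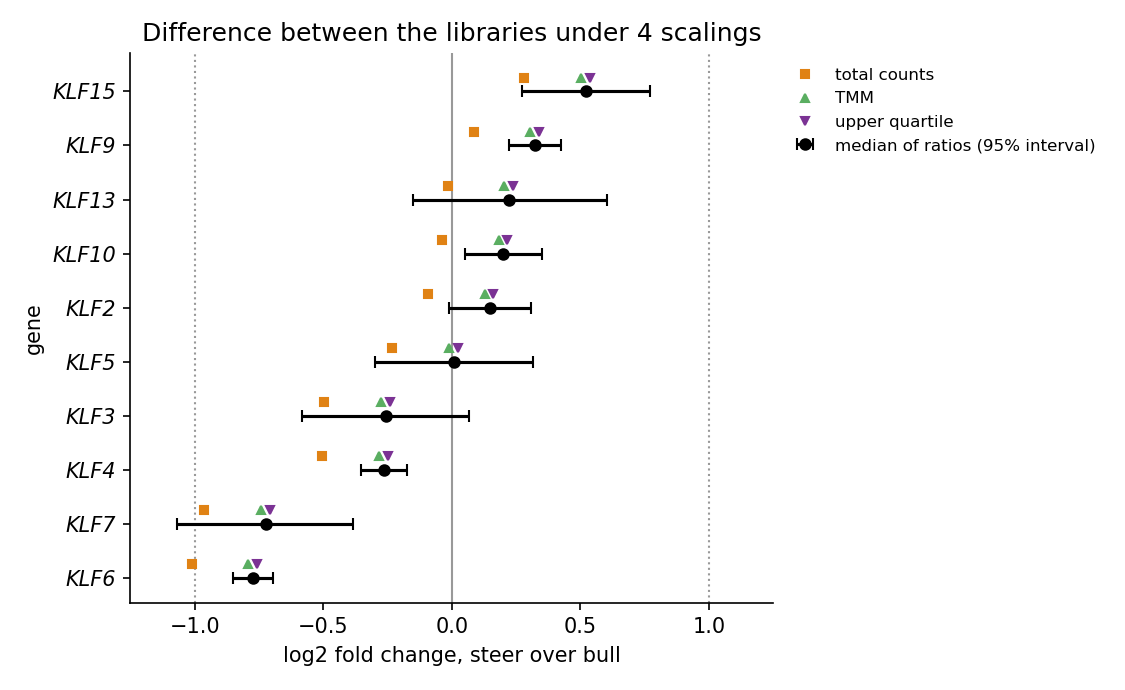
Log2FC values of the 10 KLF genes, steer over bull, with median-of-ratios size factors (black, bars are 95% Clopper-Pearson intervals) and with 3 other scalings. Dotted lines mark the fold threshold of 1 in either direction. Total counts move every gene down by the same amount, so that KLF6 passes -1 (-1.01) and only KLF9 and KLF15 stay above 0.

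The smallest intervals were 0.16 wide on the log2 scale and the largest 0.76, since the counts of the members ran from 107 to 3450. The spread between animals is not in these intervals. When edgeR's exact test was given an assumed biological coefficient of variation of 0.1 between the pools, KLF6 and KLF7 kept an adjusted p under 0.05 (0.0025 and 0.044). KLF4, KLF9, KLF10 and KLF15 did not (0.48, 0.35, 0.66 and 0.14). With a coefficient of 0.2, none of the 10 genes did.

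Ratios between 2 KLF genes of the same library do not depend on the scaling. Of the 45 pairs of members, 27 had a ratio that differed between the libraries beyond the 95% counting interval. The share among pairs of other genes was not computed. Taken singly, 56.4% of genes with a mean of at least 100 normalized counts passed without the fold threshold. The 27 pairs are therefore not read as a trait of the KLF genes. KLF6 was in 8 of these pairs, KLF7, KLF4 and KLF15 in 7 each, and KLF5 and KLF13 in 3 each. The largest shift was that of KLF15 over KLF6, with 0.156 counts of KLF15 per count of KLF6 in steers and 0.0635 in bulls, 2.45-fold higher in steers (2.04 to 2.94). KLF9 over KLF6 was at 0.853 in steers and 0.399 in bulls, a 2.14-fold shift (1.96 to 2.34). Relative to KLF6, the late-acting KLF9 and KLF15 were thus higher in the steer library whichever scaling is used. By contrast, KLF7 over KLF6 shifted by 1.03-fold (0.81 to 1.32) and KLF3 over KLF4 by 1.01-fold (0.80 to 1.27), so these pairs could not be separated. These pairs were picked from the 45 after their values were seen.

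The share that each gene had of the counts of all 10 genes, 8536 in steers and 9114 in bulls, restates the same counts. The shares add up to the whole, so a smaller share of KLF6 makes the other shares larger. Counts also depend on transcript length, so each share is compared only between the libraries. KLF6 took 25.7% of them in steers (Clopper-Pearson interval 24.8 to 26.7) and 37.9% in bulls (36.9 to 38.9). The share of KLF9 was larger in steers, with 95% intervals of 21.1% to 22.9% there and 14.4% to 15.8% in bulls. That of KLF15 was 4.01% in steers and 2.40% in bulls, again with intervals that did not overlap. KLF4 took 23.2% and 24.0%, with intervals that overlapped. KLF2 took 8.33% in steers against 6.47% in bulls and KLF10 9.81% against 7.34%, both with intervals that did not overlap. The log2FC of KLF2 itself, 0.15 (-0.01 to 0.31), did not pass the exact binomial test. The summed counts were lower in steers by a log2FC of -0.22 (-0.26 to -0.17), with 6 of the 10 genes above 0. With total counts the value was -0.46, with 2 of the 10 genes above 0. KLF6 held 2198 of the summed counts in steers and 3450 in bulls, so the sum leans on this gene. The median log2FC of the 10 genes was 0.08 with size factors and -0.16 with total counts. The sum is therefore not read as a shift of the family.

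**Figure D3:**
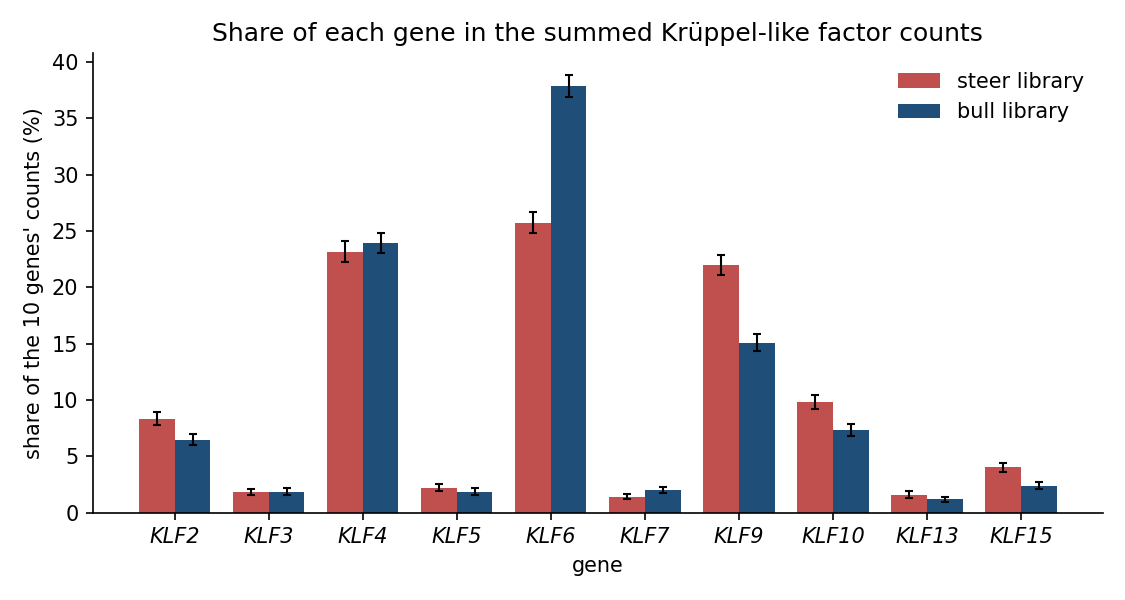
Share of each KLF gene in the summed counts of the 10 genes, in percent, in the steer library (red) and the bull library (blue), with 95% Clopper-Pearson intervals as bars. KLF6 takes 25.7% in steers and 37.9% in bulls, while KLF9, KLF10, KLF2 and KLF15 take larger shares in steers.

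Outside these 10 genes, KLF11, a relative of KLF10 that is also induced by TGF-beta, was the only KLF gene called. Its 286 counts in steers stood against 886 in bulls, a log2FC of -1.75 (-1.95 to -1.56). With an assumed coefficient of variation of 0.1 or 0.2 between the pools it was still called when edgeR's exact test was used. With a coefficient of 0.4 it was no longer called by that test (adjusted p = 0.80). KLF10 was at 0.20. With total counts KLF10 was close to 0, at -0.04, and KLF11 was at -1.99. KLF12 had the most counts of the others and was at 0.61 (0.09 to 1.15) with 83 and 50 counts. KLF1, KLF14 and KLF16 had between 1 and 35 counts per library, and KLF17 had 0 in both.

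Several KLF genes, KLF4, KLF6 and KLF10 among them, are known as fast responders to serum, stress and cytokines, alongside the classical immediate-early genes. Of 20 immediate-early genes, 7 were called downregulated in steers and 0 upregulated, where 8.13% and 4.37% of all genes tested were. Below 0 lay 19 of the 20, with a median log2FC of -0.76, whereas 8132 of the 16171 genes that had a fold lay above 0. The same shares over all genes stand beside the counts of the other lists. FOS, a subunit of AP-1, was at -1.23 with 3029 and 6525 counts, and its partner JUN at -1.08. FOSB at -2.00 and BTG2, an antiproliferative gene, at -1.06 were also called. KLF6 at -0.77 lay close to the median of these genes, KLF4 at -0.26 was nearer to 0, and KLF10 at 0.20 lay on the other side. EGR1, a zinc-finger gene picked out after its values were seen, was at -0.77 as well. A shared cause of these values was not tested.

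KLF9 and KLF15 are both known to be induced by glucocorticoids, so a list of other glucocorticoid-responsive genes was set beside them. Of 9 such genes, 3 lay above 0 and 6 below, 1 was called downregulated and 0 upregulated, and the median was -0.45. FKBP5, which encodes a co-chaperone of the glucocorticoid receptor, had the most counts, 12536 in steers against 7815 in bulls, and its log2FC of 0.56 (0.52 to 0.60) was near that of KLF15. DUSP1, a phosphatase of MAP kinases that is also on the immediate-early list, was at -0.45. ANGPTL4, an inhibitor of lipoprotein lipase, was called at -2.81 (-3.10 to -2.53), with 120 and 773 counts.

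Genes known as direct targets of KLFs did not move one way. Of 18 tested, 3 were called downregulated in steers and 0 upregulated, 9 lay above 0 and 9 below, and the median was -0.10. TGFB1 and CCL5 were among the called genes. CCL5 was at -5.53 (-7.42 to -4.15), with only 4 counts in steers against 170 in bulls, beside a value of 0.22 for KLF13. For KLF15, the targets SLC2A4, the insulin-responsive glucose transporter, and BCAT2, which starts the breakdown of branched-chain amino acids, were looked at after their values had been seen. SLC2A4 was at 0.64 (0.36 to 0.92), with 291 counts in steers against 172 in bulls, and BCAT2 was at 0.68 (0.52 to 0.85), with 850 against 487. Both were higher in steers, as KLF15 was, and neither was called. With total counts SLC2A4 was at 0.40 and BCAT2 at 0.44. A link of either gene to KLF15 was not tested. The endothelial targets of KLF2 were lower in steers, NOS3, the endothelial nitric oxide synthase, at -0.43, THBD, an anticoagulant receptor, at -0.49 and S1PR1, a sphingosine phosphate receptor, at -0.22. These 3 were also picked after their values were seen. The median of 11 endothelial markers was -0.19, and a link of the 3 genes to KLF2 was not tested.

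Of 9 adipogenic factors, 0 were called, 4 lay above 0 and 5 below, and the median was -0.17. CEBPD, which acts upstream of KLF5, was at -0.57 (-0.63 to -0.50), and SREBF1, a regulator of lipid synthesis, was at 0.25 (0.15 to 0.34). PPARG, which KLF5 activates and KLF2 blocks, was named for its role and had 279 counts against 205 in bulls. Its log2FC was 0.32 (0.06 to 0.59), with an adjusted p of 0.044 in the exact binomial test, and 0.08 with total counts. CEBPA, the gene that KLF3 represses, was named for that role and was at -0.83 (-1.01 to -0.65) with 409 and 668 counts, and at -1.07 with total counts. CEBPB and EGR2 were not analysed here. Among 11 cofactors and turnover factors of KLFs, 0 were called and the median was 0.04. KAT2B, an acetyltransferase, was at 0.14 and CREBBP, a coactivator, at -0.29. WWP1, a ubiquitin ligase that marks KLF2 and KLF5 for breakdown, was named for that role and was at -0.74 (-0.91 to -0.57).

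**Figure D4:**
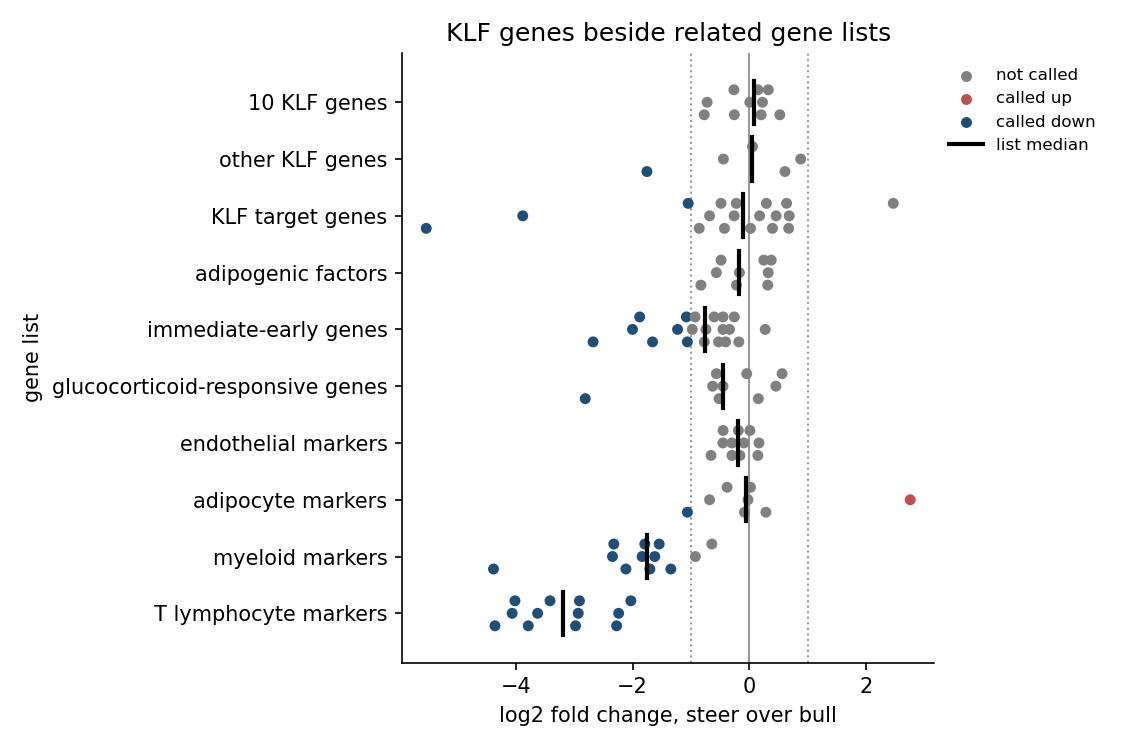
Log2FC values, steer over bull, of the genes in each list, coloured by call, with the list median as a black bar and the fold threshold as dotted lines. A gene with 0 counts in 1 library is drawn at its bound against 3 counts. The 10 KLF genes all lie between -0.77 and 0.52, whereas the T lymphocyte markers have a median of -3.19 and the myeloid markers one of -1.75.

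Markers of other cells moved with the groups. All 12 T lymphocyte markers were called downregulated in steers, and their summed level was 11.8 CPM in steers and 116 in bulls. Of 12 myeloid markers 10 were called downregulated, with 2643 CPM in steers and 8677 in bulls, CD74 at -1.84 among them. Of 6 epithelial markers tested 4 were called upregulated, with 27.5 and 5.47 CPM in all, KRT8 at 4.28 among them, and 2 others, KRT14 and KRT15, were at 0 in both libraries. In bulk RNA, fewer cells of a type and less RNA per cell cannot be told apart. The part of these cells in the KLF values was not tested.

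Endothelial markers, which bear on KLF2, KLF4 and KLF6, moved less. None of 11 was called and their median was -0.19, with PECAM1 at 0.16 and VWF at -0.19. Per 1000 counts of these markers, KLF2 stood at 64.8 counts in steers against 56.2 in bulls, a ratio of 1.15 (1.03 to 1.29). KLF6 had 200 and 328, a ratio of 0.61 (0.57 to 0.65), and KLF4 had 180 and 208, a ratio of 0.87 (0.81 to 0.93). Over the 11 endothelial markers taken singly, the ratio of KLF6 had an interval below 1 for 8 and above 1 for 0. That of KLF2 was above 1 for 8 and below 1 for 0. The KLF2 ratio ran from 0.99 (0.88 to 1.11) over PECAM1 to 1.75 over TEK. PECAM1 had the most counts of the 11 markers. The ratio of KLF4 depended on the marker, with an interval below 1 for 3 and above 1 for 1. It ran from 0.74 over PECAM1 to 1.31 over TEK. Relative to myeloid markers the order turned, since KLF6 stood at 65.6 counts per 1000 of these in steers against 40.3 in bulls, a ratio of 1.63 (1.54 to 1.72). Over the 12 myeloid markers taken singly, the interval lay above 1 for 11 and below 1 for 1, CD163. The ratio ran from 0.91 over CD163 to 12.2 over LYZ. Relative to T lymphocyte markers, which had 149 counts in steers and 1142 in bulls, KLF2 had a ratio of 9.24 (7.51 to 11.4).

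Of 8 adipocyte markers, 1 was called upregulated and 1 downregulated, and the median was -0.05. CIDEA, a lipid droplet protein, was at 2.75 and FABP4, a fatty acid carrier, at -1.06. Per 1000 counts of the adipocyte markers, KLF15 stood at 10.6 counts in steers against 6.21 in bulls, a ratio of 1.70 (1.43 to 2.02). KLF9 had 57.9 and 39.0, a ratio of 1.48 (1.38 to 1.59). These ratios depend on the marker. Over the 8 markers taken singly, both KLF genes had an interval above 1 for 6 and below 1 for 1, CIDEA. For KLF15 the ratio ran from 0.21 over CIDEA to 2.99 over FABP4, and for KLF9 from 0.19 to 2.61 over the same genes. Over CIDEC, a lipid droplet protein with the most counts of the 8, KLF9 was at 1.03 (0.95 to 1.11) and KLF15 at 1.18 (0.99 to 1.41). These ratios free of the library scaling were added after the counts had been seen.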

How the data were processed

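The authors trimmed the Ion Proton reads, mapped them with MapSplice and deposited unnormalized counts for each gene. The paper gives a bovine genome build for the mapping, whereas the repository's sample descriptions name a human one. How reads were counted, and whether by strand, is not given in the sources used here. Libraries were grouped by treatment in their labels. The 4 small RNA libraries were not used here.

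Counts were scaled by median-of-ratios size factors (numpy 2.4.6). Each gene was tested with a two-sided exact binomial test, doubling the smaller tail (scipy 1.17.1), with Benjamini-Hochberg adjustment over all genes with a count. A gene at 0 in 1 library was placed at its bound against 3 counts. Intervals are at 95%, Clopper-Pearson for folds and shares and Poisson for levels, and of ratios conditional exact intervals. CPM are counts scaled to a common total. The script was tested on simulated data. Alternatives were other scalings (TMM from edgeR 4.0.16 under R 4.3.3), filters on low counts, edgeR's exact test with an assumed coefficient of variation, no fold threshold and a prior of 5 counts. A set of muscle, fibroblast, mural, epithelial, endothelial, adipocyte, myeloid and T lymphocyte markers and lists of KLF-related genes were written from general knowledge. The KLF genes and lists were chosen with earlier results of these data known. Beyond the 10 KLF genes, the called KLF and SP genes and the uncalled ones with the most counts are named, and for other lists up to 4 called genes with the most counts, or those with the most counts up to 2 where fewer than 2 were called. The values of 1 called gene are not reported here. No sequence is printed. Transcript lengths were not used here, so an order of genes is one of counts and not of levels per length.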

Additional observations from a re-analysis of the deposited data

How the results depend on the processing

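No paired analysis was possible because each group had 1 mRNA library, and no library could be left out for the same reason. Scaling by total counts moved the median log2 fold change of the 10 KLF genes from 0.08 to -0.16, while that of all genes moved from 0.003 to -0.24. It turned KLF2 to -0.092, KLF5 to -0.23, KLF10 to -0.038 and KLF13 to -0.015. With that scaling 1 of the 10 KLF genes, KLF6, was called downregulated instead of 0. With TMM factors KLF5 was at -0.011. Without the fold threshold 3 KLF genes were called upregulated and 3 downregulated. KLF3, KLF4, KLF6, KLF7, KLF9 and KLF15 kept their direction under the 3 other scalings and the prior, the 4 alternatives that could move it. The calls over all genes, 776 up and 1444 down, became 539 and 2006 with total counts, 458 and 973 when genes under 10 counts in either library were left out, 368 and 762 with an assumed coefficient of variation of 0.2, 52 and 93 with one of 0.4, and 3535 and 3254 without the fold threshold. Precision was limited by counts for KLF3, KLF5, KLF7 and KLF13, and for all 10 by the single pool per group.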

Other observations

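The SP factors, which share the zinc-finger type of the KLFs and bind the same GC-rich elements, showed no calls. Of 9 genes 7 had a count and 0 were called in either direction, with a median log2 fold change of -0.23. SP6, with 0 and 1 counts, had no fold and is not in the median. Without the fold threshold 2 passed the exact binomial test at an adjusted p under 0.05, where 38.2% of all genes tested did. They are named for that, SP2 at -0.97 (-1.53 to -0.43) and SP4 at -0.84 (-1.45 to -0.26). SP1 had the most counts and was at -0.13 (-0.28 to 0.02) with 749 counts in steers against 752 in bulls. Of 5 steroid receptor genes 0 were called. NR3C1, the glucocorticoid receptor that acts upstream of KLF9 and KLF15, was at -0.02 (-0.17 to 0.13) with 723 and 674 counts. NR3C2, the mineralocorticoid receptor, was at -0.92 (-1.42 to -0.43) with 57 and 99 counts.

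Fibroblast markers took 9.42% of all counts in steers and 5.76% in bulls, and 2 of 8 were called upregulated, COL3A1 at 1.27 and COL1A1 at 1.00. Of 7 mural cell markers 0 were called, with a median of 0.05, PDGFRB at 0.05 and TAGLN at 0.45. Of 12 skeletal muscle markers 1 was called upregulated, MYH1 at 1.15, and 3 downregulated, DES at -1.26, MYH7 at -2.23 and TNNT1 at -2.01. KLF15 is also expressed in muscle, and the part of muscle RNA in its values was not tested.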
